A study of Mus musculus with 22 samples.

Results

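Aminoacyl-tRNA synthetases were followed in intestinal tissue of male wild-type C57BL/6 mice, an inbred laboratory strain, in an experiment that crossed the kind of dietary fibre with exposure to PFOS (perfluorooctanesulfonic acid, a persistent fluorinated surfactant). The members are the 42 genes of 46603 in the deposited tables whose description names a tRNA synthetase or a tRNA ligase, with 1 matching pseudogene row left out. They comprise 19 cytosolic enzymes or subunits, 17 mitochondrial enzymes, 2 enzymes that serve both compartments from a single gene (Gars for glycine and Kars for lysine), 2 scaffold proteins of the cytosolic multisynthetase complex (Aimp1 and Aimp2), and 2 related proteins with synthetase-like domains (Aarsd1 and Prorsd1). All 42 passed the filter on low counts. Groups were Pectin_PFOS (pectin fibre with PFOS, n = 4), Pectin (pectin alone, n = 4), Inulin_PFOS (inulin fibre with PFOS, n = 3), Inulin (inulin alone, n = 3), PFOS (cellulose fibre with PFOS, n = 4) and Control (cellulose alone, n = 4). All animals started at 7 weeks of age and stayed for 7 weeks on an irradiated diet with 8% fibre by weight, in which fat supplied 35%, protein 20% and carbohydrate 45% of the kcal. The exposed groups took up PFOS with their drinking water, at a daily 3 µg per kg of body weight. Exposure was read from the group names in the titles, because the treatment label names PFOS for unexposed samples as well. The gut segment is not given in the sources used here, and the titles call the replicates biological without naming animals, so p-values measure the spread between these samples, which need not be separate mice.

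Each synthetase joins an amino acid to its own tRNA, the step that fixes the genetic code, and nearly every amino acid has a separate nuclear gene for the cytosolic and for the mitochondrial enzyme. When a tRNA goes uncharged, the kinase GCN2 phosphorylates the initiation factor eIF2 and the transcription factor ATF4 is translated; in mammalian cells ATF4 is known to raise many cytosolic synthetase genes, but few mitochondrial ones, along with Asns (asparagine synthetase) and Mthfd2 (a mitochondrial folate enzyme). The intestinal epithelium renews itself constantly and secretes much protein, so it draws heavily on charged tRNA.

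The start-site windows of cytosolic members are shown because many cytosolic members were called higher in the comparisons that follow. RefSeq promoter windows on build GRCm38.p6, each 300 bases long with 250 before and 50 from the start site on, were matched for 32 of the 42 members. Nars, Rars, Wars, Cars and Lars, all called higher below, had no matched window and were not searched. The core of the C/EBP-ATF response element, which ATF4 binds together with a C/EBP partner, was searched as TGATGCAA on either strand. It stood in the windows of 4 of 12 matched cytosolic members, 0 of 14 mitochondrial members and 0 of 2 dual members, and in 0.895% of 32851 promoter windows of the genome. Those 4 windows are printed 5′ to 3′ on the strand of the gene, with the element in capitals, as TTGCATCA where it lies on the opposite strand.
Aars: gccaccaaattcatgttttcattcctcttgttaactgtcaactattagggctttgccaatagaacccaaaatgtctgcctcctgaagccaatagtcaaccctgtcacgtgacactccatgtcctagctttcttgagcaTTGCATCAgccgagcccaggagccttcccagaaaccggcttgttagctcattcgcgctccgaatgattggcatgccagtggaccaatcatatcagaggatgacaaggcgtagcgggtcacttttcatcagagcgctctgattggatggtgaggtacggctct
Tars: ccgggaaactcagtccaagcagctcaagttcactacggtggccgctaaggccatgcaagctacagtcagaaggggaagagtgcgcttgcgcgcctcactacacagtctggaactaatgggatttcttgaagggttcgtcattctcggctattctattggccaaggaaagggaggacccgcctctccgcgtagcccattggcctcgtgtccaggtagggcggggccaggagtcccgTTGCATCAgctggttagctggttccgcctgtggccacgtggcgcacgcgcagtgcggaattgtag
Iars: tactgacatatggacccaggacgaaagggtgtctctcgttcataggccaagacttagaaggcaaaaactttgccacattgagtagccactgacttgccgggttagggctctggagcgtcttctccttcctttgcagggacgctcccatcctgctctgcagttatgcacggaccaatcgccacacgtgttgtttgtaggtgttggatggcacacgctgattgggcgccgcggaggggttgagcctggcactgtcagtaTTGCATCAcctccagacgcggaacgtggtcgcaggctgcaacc
Yars: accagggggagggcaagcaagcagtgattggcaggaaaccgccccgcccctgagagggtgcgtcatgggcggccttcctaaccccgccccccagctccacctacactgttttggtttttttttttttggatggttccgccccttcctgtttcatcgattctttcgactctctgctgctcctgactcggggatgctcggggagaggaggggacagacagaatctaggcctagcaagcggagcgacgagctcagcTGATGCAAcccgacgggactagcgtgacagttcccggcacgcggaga
The Aars window (chr8:111033592-111033891, plus strand) holds the element 112 bases before the start site. In Tars (chr15:11399609-11399908, minus strand) it begins 15 bases before the start site. In Iars (chr13:49681880-49682179, plus strand) and Yars (chr4:129189653-129189952, plus strand) it begins 7 and 3 bases after the start site. The binding motif of NRF1, a regulator of respiratory genes, searched on either strand, stood in 4.6% of all windows and in 5 of the 32 member windows, those of Farsb, Tars, Kars, Iars2 and Mars2. In Tars it does not overlap the ATF element. Such matches are letters in a window and do not show binding, and a window without them says nothing about the factor. The ATF element was absent from the windows of Mars, Gars, Kars, Qars, Sars, Farsb, Fars2 and Iars2, all called higher below. Iars, which has it, was not called in any comparison. A link between the element and the calls was not tested.

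Levels per transcript length spanned a wide range within the family, and the cytosolic enzymes were the more abundant class. The highest mean TPM (transcripts per 1000000) over 22 libraries was 97.9 for Qars, the glutaminyl enzyme, followed by 88.6 for Nars (asparagine), 51.0 for Sars (serine) and 49.9 for the scaffold Aimp1. At the low end stood Mars2 (mitochondrial methionine) with 0.544 TPM and Tarsl2 (another cytosolic threonyl enzyme) with 0.775 TPM. The most abundant mitochondrial member was Iars2 (isoleucine) with 11.4 TPM. Summed over its members, the cytosolic class held 292 to 681 TPM per library and the mitochondrial class 57.03 to 119.19 TPM.

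**Figure D1:**
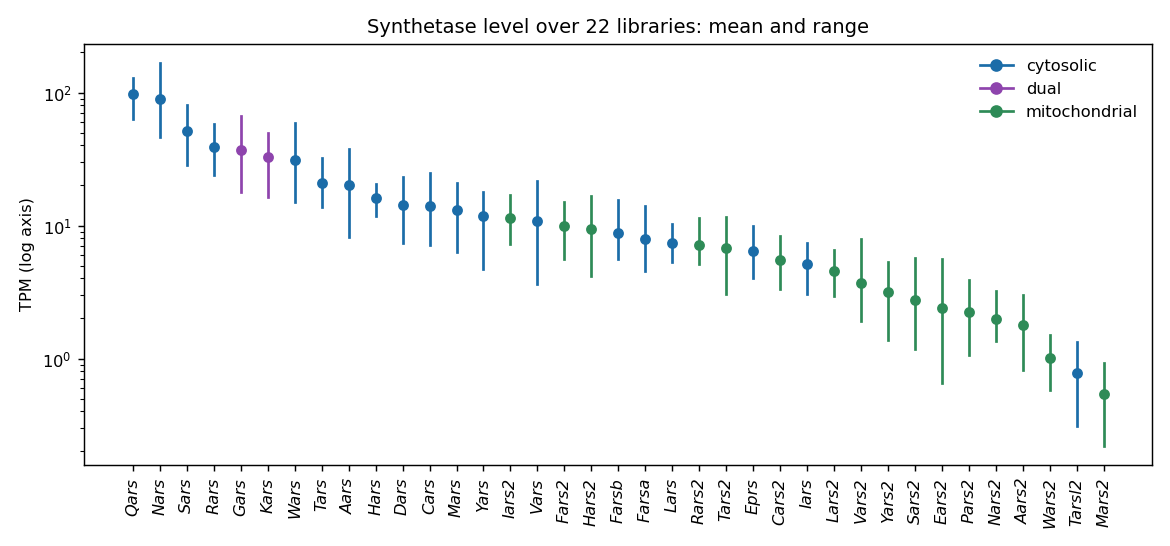
Mean TPM over 22 libraries (points) and the lowest to highest library (lines) for the cytosolic, dual and mitochondrial enzymes reported here by name, on a log axis, ordered by mean. Cytosolic enzymes fill most of the upper ranks, from Qars at 97.9 TPM, and Mars2 is lowest at 0.544 TPM.

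Library totals lay between 17613297 and 20261357 counts, of which the members took 0.0949% to 0.193%. Epithelial and enterocyte markers were present in every library (Epcam averaged 2941 CPM and Fabp2 13372 CPM, where CPM is counts per 1000000 after TMM scaling). All changes are relative to TMM (trimmed mean of M values) scaling, whose factors were 0.749 to 1.00 in Pectin_PFOS, 0.897 to 0.936 in Inulin_PFOS and 1.11 to 1.21 in PFOS. Over the 15763 genes tested, scaling to the totals only put the median log2 fold change at −0.41 in Pectin_PFOS vs PFOS, −0.33 in Inulin_PFOS vs PFOS, −0.27 for Pectin_PFOS vs Pectin, −0.20 for Inulin vs Control and −0.15 for Pectin vs Control. On the TPM scale, log2(TPM + 1), it was −0.29 in Pectin_PFOS vs PFOS, −0.36 in Inulin_PFOS vs PFOS, −0.20 for Pectin vs Control, −0.14 for Inulin_PFOS vs Inulin and 0.16 for PFOS vs Control. In bulk tissue, fewer cells of a type and less RNA per cell cannot be told apart.

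Pectin in PFOS-exposed mice went with the broadest rise. In Pectin_PFOS vs PFOS, 16 of 42 members were called higher and 0 lower at an adjusted p under 0.05 (edgeR quasi-likelihood test, Benjamini-Hochberg over all genes tested), where 16% of all genes were called, 7.7% higher and 8.33% lower. The 16 were 12 of 19 cytosolic members, both dual enzymes and 2 of 17 mitochondrial members. The median log2 fold change was 0.70 for the cytosolic class, which shrank to 0.31 with library totals and 0.12 on the TPM scale, and −0.03 for all genes. For the mitochondrial class it was 0.27, and turned to −0.13 with library totals and −0.15 on the TPM scale. Calls split the same way: 12 cytosolic members higher and 0 lower with TMM, 3 higher and 2 lower with library totals, and 1 higher (Nars) and 2 lower on the TPM scale. Of all genes, 299 were called higher and 3530 lower with library totals, and 237 higher and 3680 lower on the TPM scale.

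Nars, the asparaginyl enzyme, had the largest log2 fold change of the family in this comparison. It stood at 261.6, 377.5, 337.9 and 258.7 CPM in Pectin_PFOS, against 123.5, 99.98, 110.0 and 133.0 CPM in PFOS. Every Pectin_PFOS library lay well above every PFOS library, and the log2 fold change was 1.41 ± 0.17 (SE; adjusted p = 0.000156). The call held under all 10 other settings and without any of the 22 libraries in turn. Mars, the methionyl enzyme that charges the initiator tRNA, had 31.4, 53.2, 30.1 and 29.4 CPM in Pectin_PFOS, against 20.9, 14.4, 16.2 and 16.1 CPM in PFOS. The groups did not overlap, replicate 2 of Pectin_PFOS stood above its fellows, and the log2 fold change was 1.09 ± 0.19 (adjusted p = 0.00166). Rars, the arginyl enzyme of the complex, had 73.4, 101.4, 84.4 and 80.1 CPM in Pectin_PFOS, against 48.9, 35.7, 44.4 and 48.2 CPM in PFOS. Again no library of PFOS reached one of Pectin_PFOS (log2 fold change 0.94 ± 0.15, adjusted p = 0.0014).

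Both dual enzymes rose as well. Gars had 106.3, 134.6, 98.9 and 71.5 CPM in Pectin_PFOS, against 58.2, 54.9, 43.4 and 52.3 CPM in PFOS. Kars had 75.6, 84.9, 68.8 and 56.4 CPM in Pectin_PFOS, against 37.4, 30.6, 34.9 and 42.7 CPM in PFOS. Neither gene showed any overlap between the groups, with log2 fold changes of 0.98 ± 0.17 (adjusted p = 0.00206) and 0.97 ± 0.17 (adjusted p = 0.00171). Both calls were lost on the TPM scale, with adjusted p up to 0.127 for Gars and 0.106 for Kars. The other called cytosolic members were Tars (threonine, 0.73 ± 0.15), Farsb (the beta subunit for phenylalanine, 0.85 ± 0.19), Qars (0.60 ± 0.14), Sars (0.70 ± 0.16), Yars (tyrosine, 0.79 ± 0.19), Wars (tryptophan, 0.78 ± 0.22), Cars (cysteine, 0.70 ± 0.20), Lars (leucine, 0.50 ± 0.14) and Aars (alanine, 0.77 ± 0.23), with adjusted p between 0.00501 and 0.027. The calls of Cars, Wars, Lars and Aars were lost without Pectin_PFOS replicate 2, and each was also lost without PFOS replicate 3. The call of Fars2 was lost in 14 of the 22 omissions. On the TPM scale Qars turned to −0.06 and was not called. Dars (aspartate), Tarsl2 and Farsa (the alpha subunit for phenylalanine) had log2 fold changes of −0.26, −0.65 and −0.01 and were not called. Among the mitochondrial members, Iars2 (0.63 ± 0.15, adjusted p = 0.0114) and Fars2 (phenylalanine, 0.51 ± 0.17, adjusted p = 0.0458) were called higher, and the other 15 lay between −0.62 for Mars2 and 0.61 for Sars2. About 22.9% of the exon bases of Iars2 overlap Rab3gap2 on the opposite strand, and 29.4% of those of Aimp2 overlap Eif2ak1. How the counting used strand is not stated, so reads of such pairs may be mixed.

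**Figure D2:**
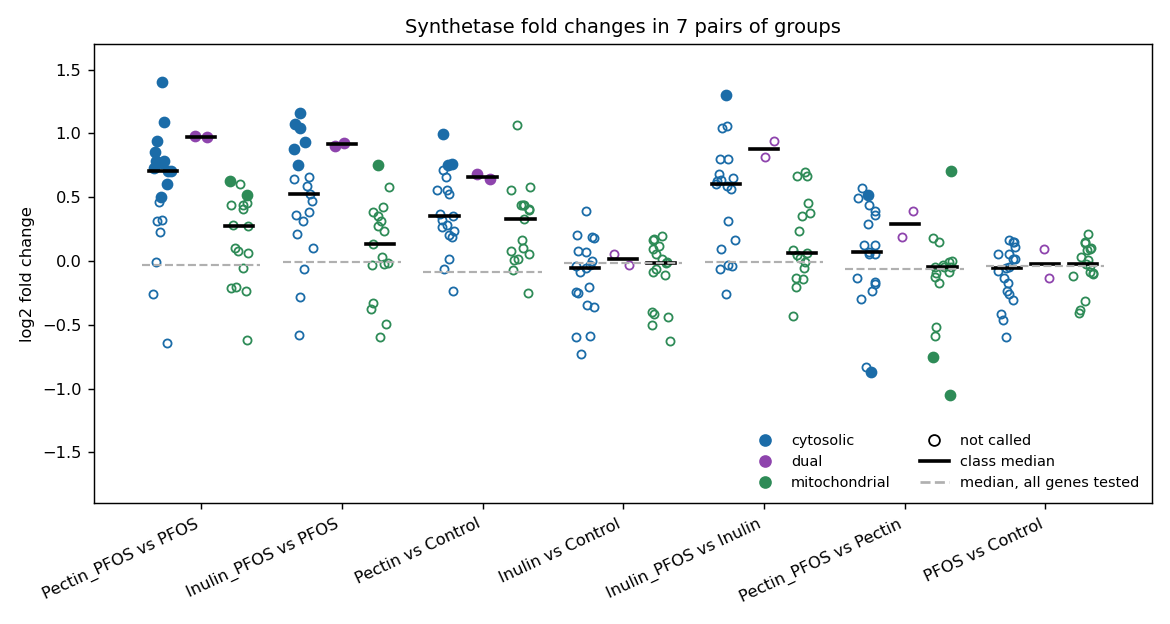
Log2 fold change (y axis) of the cytosolic, dual and mitochondrial enzymes in 7 pairs of groups (x axis), with filled points for called members, black bars for class medians and a dashed line for the median of all genes tested. The cytosolic medians, with TMM scaling, stand at 0.70, 0.52 and 0.61 in Pectin_PFOS vs PFOS, Inulin_PFOS vs PFOS and Inulin_PFOS vs Inulin, the second of which turns to −0.06 on the TPM scale.

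Inulin in PFOS-exposed mice gave 9 called members, all higher, where 2.64% of all genes were called (1.84% higher and 0.799% lower). The comparison uses the same PFOS libraries as the one with pectin. The called members were Nars, Mars, Rars, Tars, Wars and Yars among 19 cytosolic genes, both dual enzymes, and Fars2 among 17 mitochondrial ones. The cytosolic median was 0.52 (0.19 with library totals, −0.06 on the TPM scale) and the mitochondrial median 0.13 (−0.19 with library totals, −0.30 on the TPM scale), beside −0.01 for all genes. On the TPM scale 0 cytosolic members were called higher and 1 lower, and 0 mitochondrial members higher and 3 lower, where 144 of all genes were called higher and 2957 lower, a share close to that of the mitochondrial class.

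Mars had 43.7, 28.8 and 40.9 CPM in Inulin_PFOS, against 20.9, 14.4, 16.2 and 16.1 CPM in PFOS. Nars had 282.8, 188.9 and 247.1 CPM in Inulin_PFOS, against 123.5, 99.98, 110.0 and 133.0 CPM in PFOS. In both genes all Inulin_PFOS libraries lay above all PFOS libraries, and replicate 2 was the lowest of Inulin_PFOS. Their log2 fold changes were 1.16 ± 0.20 and 1.04 ± 0.18 (adjusted p = 0.00482 each), and both calls held without any of the 22 libraries in turn but were lost on the TPM scale. Wars, an enzyme also known to be induced by interferon, had 127.4, 93.1 and 114.0 CPM in Inulin_PFOS, against 69.5, 42.4, 51.6 and 48.4 CPM in PFOS. The groups were apart, with a log2 fold change of 1.07 ± 0.23 (adjusted p = 0.0174). The others were Rars (0.88 ± 0.16), Kars (0.92 ± 0.18), Gars (0.90 ± 0.19), Tars (0.75 ± 0.16), Yars (0.93 ± 0.20) and Fars2 (0.75 ± 0.18), with adjusted p between 0.00754 and 0.0308. The calls of Rars, Kars, Gars, Tars, Wars, Yars and Fars2 were each lost without PFOS replicate 2 or without Inulin_PFOS replicate 1.

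Pectin without PFOS gave a smaller set. In Pectin vs Control, 5 members were called higher and 0 lower, where 1.99% of all genes were called (1.03% higher and 0.958% lower). The 5 were Nars, Rars, Mars, Gars and Kars. Without overlap between the groups, 16 members lay higher and 0 lower, where 3.95% of all genes lay higher and 4.29% lower. Nars had 255.1, 239.1, 242.6 and 225.5 CPM in Pectin, against 125.0, 119.6, 118.6 and 120.8 CPM in Control. Both groups were tight and far apart (log2 fold change 0.99 ± 0.17, adjusted p = 0.00904), and this call held without any of the 22 libraries in turn but was lost on the TPM scale and with these groups alone in the fit. Rars had 95.9, 72.9, 69.8 and 89.0 CPM in Pectin, against 48.0, 46.3, 51.2 and 48.7 CPM in Control. All Pectin libraries exceeded all Control libraries (0.75 ± 0.15, adjusted p = 0.0218), and the call was lost without Pectin replicate 1 (adjusted p = 0.0573) and in 5 of 10 other settings (library totals, the TPM scale and these groups alone, adjusted p up to 0.251). Mars (0.76 ± 0.19), Gars (0.68 ± 0.17) and Kars (0.64 ± 0.17) passed narrowly, with adjusted p between 0.0421 and 0.0469, and each call was lost without any single Pectin library and under several other settings. The cytosolic median was 0.35 and the mitochondrial median 0.32, beside −0.08 for all genes, so that the classes lay 0.02 apart. On the TPM scale the medians were 0.09 and 0.00. Ears2, the mitochondrial glutamyl enzyme, had the largest log2 fold change of its class, 1.07 ± 0.36, and was not called (adjusted p = 0.117).

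Inulin without PFOS, set against the same Control libraries, called 0 members, where 0% of all genes were called. Unadjusted, 4 of 42 members had a p under 0.05, beside 3257 of all 15763 genes. DESeq2 called 1 of 19 cytosolic members, where it called 192 of all genes higher and 591 lower. Without Control replicate 1, edgeR called 244 of all genes higher and 550 lower in this comparison, without Pectin_PFOS replicate 1 it called 38 and 237, and without Inulin replicate 3 it called 85 and 32. The cytosolic median was −0.06 and the mitochondrial median −0.02. Qars (0.39 ± 0.15), Tarsl2 (−0.73 ± 0.32) and Dars (−0.59 ± 0.27) had the smallest p of the cytosolic class, with adjusted p of 0.15 to 0.215. In the mitochondrial class these were Nars2 (asparagine, −0.50 ± 0.25), Yars2 (tyrosine, −0.63 ± 0.32) and Mars2 (−0.41 ± 0.24), with adjusted p of 0.256 to 0.326. Without overlap, 1 member lay higher in Inulin and 3 lower, where 3.7% of all genes lay higher and 6.12% lower.

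PFOS on cellulose called 0 members, where 0% of all genes were called. Unadjusted, 2 members had a p under 0.05, beside 842 of all genes, and DESeq2 called 0 members of the cytosolic and mitochondrial classes. The cytosolic median was −0.05 and the mitochondrial median −0.03, and they turned to 0.18 and 0.13 on the TPM scale, where the median of all genes was 0.16. Dars (−0.60 ± 0.24), Farsb (−0.46 ± 0.19) and Hars (histidine, −0.24 ± 0.13) had the smallest p, with adjusted p of 0.822 each. In the mitochondrial class these were Nars2 (−0.41 ± 0.23), Lars2 (leucine, −0.32 ± 0.21) and Yars2 (−0.38 ± 0.29), with adjusted p of 0.822 to 0.828. Without overlap, 0 members lay higher in PFOS and 1 lower, where 1.14% of all genes lay higher and 1.03% lower.

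PFOS on inulin called a single member, Mars, where 0.159% of all genes were called (0.0698% higher and 0.0888% lower). Mars had 43.7, 28.8 and 40.9 CPM in Inulin_PFOS, against 14.0, 17.1 and 14.9 CPM in Inulin. The lowest exposed library lay well above the highest unexposed one, and the log2 fold change was 1.30 ± 0.22 (adjusted p = 0.0136). The call was lost without Inulin replicate 1, Inulin_PFOS replicate 1 or Inulin_PFOS replicate 3 (adjusted p up to 0.197), on the TPM scale, and when only these groups entered the fit. Yars had 35.1, 26.0 and 32.8 CPM in Inulin_PFOS, against 13.5, 18.2 and 13.8 CPM in Inulin. Those groups did not overlap either, and Yars (1.04 ± 0.22) missed the threshold at an adjusted p of 0.0514. Of the 19 cytosolic members, 12 had a p under 0.05 unadjusted and 12 lay higher in every exposed library than in every unexposed one, where 12.2% of all genes did so. Of the 17 mitochondrial members, 3 had a p under 0.05 and 3 did so, while 2963 of all 15763 genes had a p under 0.05, a share close to that of the mitochondrial class. Fars2 (0.67 ± 0.20, adjusted p = 0.117), Nars2 (0.67 ± 0.26, adjusted p = 0.19) and Hars2 (mitochondrial histidine, −0.43 ± 0.19, adjusted p = 0.233) had the smallest p of that class. The cytosolic median was 0.61 (0.32 on the TPM scale) and the mitochondrial median 0.07 (−0.11 on the TPM scale), beside −0.01 for all genes. DESeq2 called 8 cytosolic members and 1 mitochondrial member higher, where it called 204 of all 15763 genes higher and 293 lower.

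PFOS on pectin gave few calls for a comparison in which much of the transcriptome was called. In Pectin_PFOS vs Pectin, 2 of 42 members were called higher and 3 lower, both smaller shares than those of all genes, of which 20.8% were called (11.4% higher and 9.43% lower). Iars2 had 75.8, 66.3, 65.8 and 63.3 CPM in Pectin_PFOS, against 35.1, 38.1, 37.8 and 55.5 CPM in Pectin. Qars had 244.6, 209.7, 233.8 and 199.0 CPM in Pectin_PFOS, against 151.2, 153.1, 157.2 and 160.1 CPM in Pectin. Neither gene overlapped between the groups (log2 fold changes 0.70 ± 0.15 and 0.51 ± 0.14, adjusted p = 0.00677 and 0.015), and neither was called with library totals or on the TPM scale. The call of Qars was lost without Pectin_PFOS replicate 1. Dars, the aspartyl enzyme of the complex, had 18.5, 23.4, 13.9 and 14.9 CPM in Pectin_PFOS, against 36.2, 32.7, 34.4 and 26.2 CPM in Pectin. Yars2, the mitochondrial tyrosyl enzyme, had 2.50, 2.63, 1.86 and 3.44 CPM in Pectin_PFOS, against 5.49, 5.74, 4.67 and 5.75 CPM in Pectin. Both lay lower in every exposed library (−0.87 ± 0.24 and −1.05 ± 0.30, adjusted p = 0.019 and 0.0196), and both calls held under all 10 other settings. Both were lost without Pectin_PFOS replicate 3, that of Dars also without Pectin replicate 1 and that of Yars2 also without Pectin_PFOS replicate 1. Mars2 had 2.70, 4.45, 3.49 and 4.75 CPM in Pectin_PFOS, against 6.88, 5.31, 5.78 and 8.01 CPM in Pectin. It also showed no overlap (−0.75 ± 0.22, adjusted p = 0.0229), but its call was lost without Pectin replicate 1 or 4 or Pectin_PFOS replicate 1 or 3, and in 5 of 10 other settings. The cytosolic median was 0.07 and the mitochondrial median −0.05, beside −0.06 for all genes, so that the mitochondrial median was near that of all genes. A negative log2 fold change was found for 14 of 17 mitochondrial members, where 46.4% of all genes had a positive one.

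**Figure D3:**
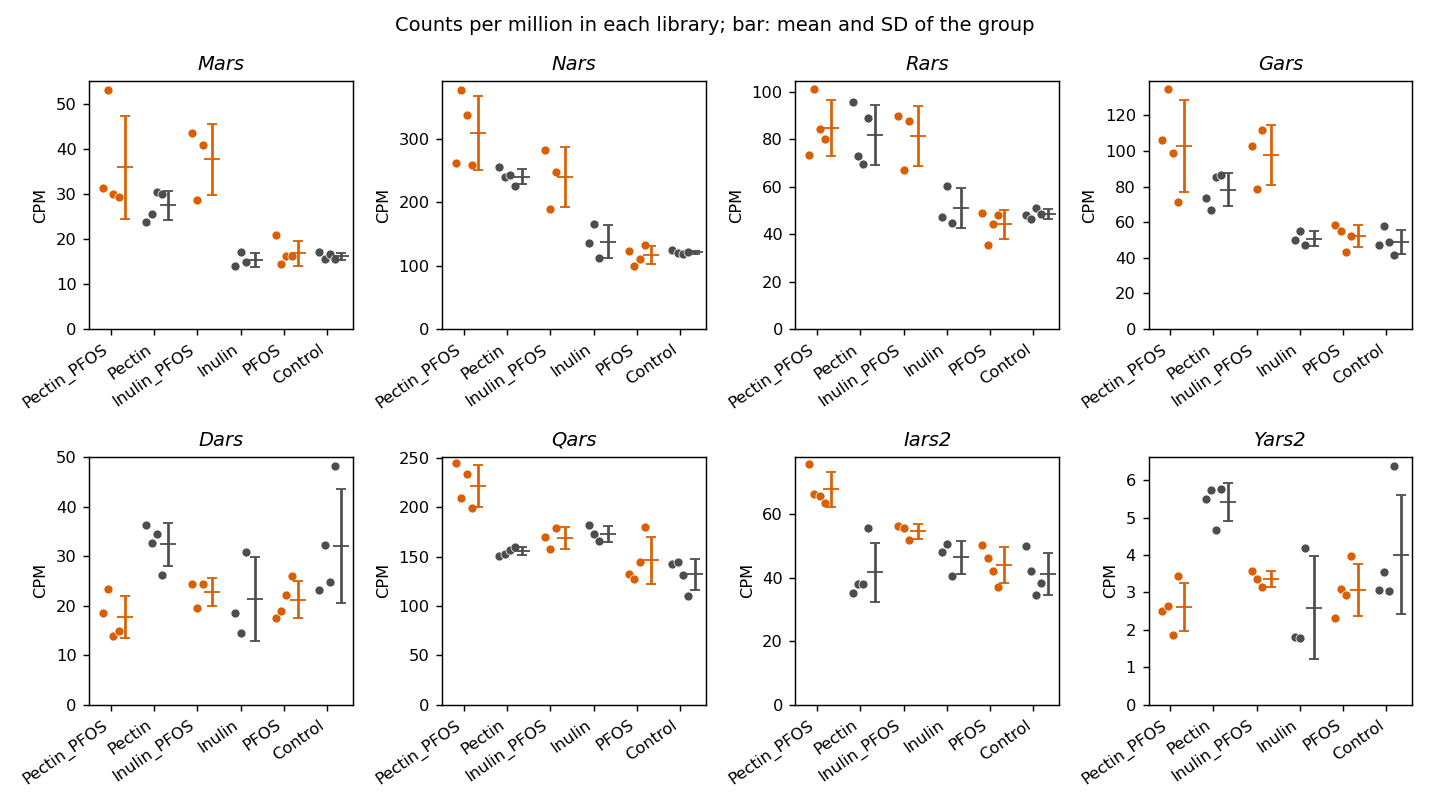
CPM (y axis) of 8 members in each of the 22 libraries, with the mean and SD of each group drawn beside its points (orange for PFOS-exposed groups, grey for unexposed ones). With TMM scaling, Nars, Mars, Rars and Gars sit higher in Pectin_PFOS, Pectin and Inulin_PFOS than in Inulin, PFOS and Control, while Dars and Yars2 are lower in Pectin_PFOS than in Pectin.

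The PFOS responses were also set against each other. The interaction with inulin, the PFOS effect on inulin minus the PFOS effect on cellulose, called 0 members and 0% of all genes. Its cytosolic median was 0.70 (0.21 on the TPM scale) and its mitochondrial median 0.14 (−0.24 on the TPM scale), and 13 of 19 cytosolic members against 3 of 17 mitochondrial ones had a p under 0.05 unadjusted, beside 3099 of all genes. Mars had the smallest p, with a difference of 1.24 ± 0.28 and an adjusted p of 0.0984, and DESeq2 called 5 cytosolic members higher, where it called 335 of all genes higher and 324 lower. Without Control replicate 1, edgeR called 323 of all genes higher and 444 lower. The interaction with pectin also called 0 members and 0% of all genes. There 2 of 42 members had a p under 0.05 unadjusted (Iars2 and Mars2), beside 1953 of all 15763 genes, and DESeq2 called 0 members of both classes, against 132 genes higher and 3 lower of all genes. The difference between the PFOS effect on pectin and the PFOS effect on inulin called 5 members, all lower, where 25.4% of all genes were called (13.1% higher and 12.3% lower), so that the share of members called lower was near that of all genes. They were Nars2 (−1.19 ± 0.35, adjusted p = 0.02), Mars (−0.91 ± 0.28, adjusted p = 0.0251), Yars (−0.92 ± 0.29, adjusted p = 0.0271), Yars2 (−1.42 ± 0.45, adjusted p = 0.0289) and Prorsd1 (−0.78 ± 0.28, adjusted p = 0.0486). The call of Mars held under all 10 other settings, and the other 4 were lost on the TPM scale. Each of the 5 was lost without Inulin replicate 1 or Inulin_PFOS replicate 1, and Prorsd1 in 16 of 22 omissions.

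Class scores gave the same comparison in single libraries. Each library was given the average log2 CPM over the members of a class, less its average across the 22 libraries. The cytosolic score was 0.05, 0.58, 0.25 and 0.18 in Pectin_PFOS, 0.20, 0.11, 0.24 and 0.38 in Pectin and 0.34, −0.04 and 0.35 in Inulin_PFOS. It was −0.42, −0.25 and −0.22 in Inulin, −0.20, −0.36, −0.29 and −0.19 in PFOS and −0.16, −0.19, −0.13 and −0.21 in Control. With TMM scaling every library of Pectin_PFOS, Pectin and Inulin_PFOS lay above every library of Inulin, PFOS and Control, and Inulin_PFOS replicate 2 was the nearest to them. Summed TPM of the class gave no such separation, at 454 to 681 in Pectin_PFOS, 403 to 544 in Pectin, 427 to 503 in Inulin_PFOS, 337 to 445 in Inulin, 437 to 543 in PFOS and 292 to 515 in Control. The mitochondrial score ran from −0.18 to 0.25 in Pectin_PFOS, 0.02 to 0.62 in Pectin, −0.13 to 0.11 in Inulin_PFOS, −0.30 to −0.07 in Inulin, −0.34 to 0.01 in PFOS and −0.33 to 0.20 in Control. Pectin lay above Inulin and PFOS without overlap, and the other groups overlapped with most of the rest. The cytosolic minus the mitochondrial score, in which a library's scaling factor all but cancels, averaged 0.21 ± 0.10 in Inulin_PFOS against −0.14 ± 0.02 in Inulin (SD, n = 3 each), and those groups did not overlap. It averaged 0.19 ± 0.24 in Pectin_PFOS, 0.02 ± 0.22 in Pectin, −0.16 ± 0.11 in PFOS and −0.11 ± 0.20 in Control (SD, n = 4 each), with overlap between Pectin_PFOS, Pectin, PFOS and Control. The gap between the class medians of log2 fold change was 0.54 for Inulin_PFOS vs Inulin, 0.39 for Inulin_PFOS vs PFOS, 0.43 for Pectin_PFOS vs PFOS, 0.12 for Pectin_PFOS vs Pectin and 0.02 for Pectin vs Control. Over all other settings the gap for Inulin_PFOS vs Inulin stayed between 0.43 and 0.55, for Pectin_PFOS vs PFOS between 0.27 and 0.45, and for Inulin_PFOS vs PFOS between 0.24 and 0.40. Without single libraries these 3 gaps ran from 0.45 to 0.57, 0.30 to 0.57 and 0.32 to 0.54, while that of Pectin_PFOS vs Pectin ran from 0.01 to 0.24 and that of Pectin vs Control from −0.10 to 0.22.

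**Figure D4:**
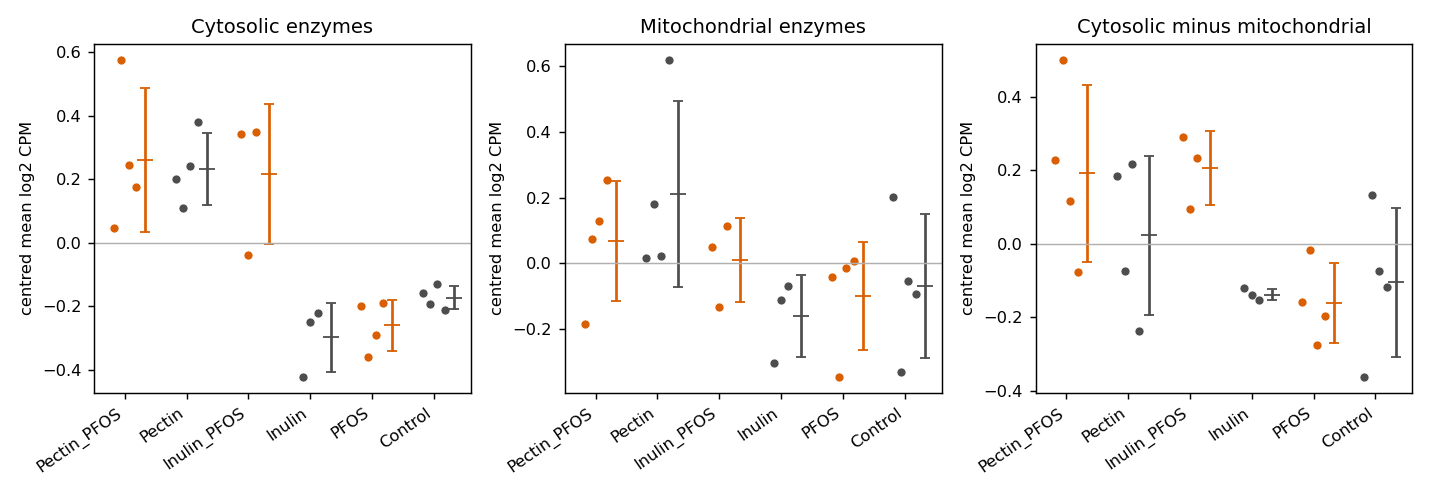
Centred mean log2 CPM (y axis) of the cytosolic class, the mitochondrial class and their difference in each of the 22 libraries, with group mean and SD (orange for PFOS-exposed groups, grey for unexposed ones). With TMM scaling the cytosolic score separates Pectin_PFOS, Pectin and Inulin_PFOS (−0.04 to 0.58) from Inulin, PFOS and Control (−0.42 to −0.13), and the mitochondrial score does not.

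The cytosolic and mitochondrial enzymes for 1 amino acid often had unlike values. In Inulin_PFOS vs PFOS the log2 fold change was 1.16 for Mars and −0.59 for Mars2, 1.07 for Wars and 0.35 for Wars2, and 0.88 for Rars and −0.02 for Rars2. In Pectin_PFOS vs Pectin the pattern differed by amino acid, with 0.13 for Yars and −1.05 for Yars2, but −0.30 for Iars and 0.70 for Iars2. The differences between the partners were not tested. The 8 enzymes of the multisynthetase complex had a median of 0.55 in Pectin_PFOS vs PFOS, with 5 called higher, and the 13 cytosolic and dual enzymes outside it 0.73, with 9 called higher. The scaffolds Aimp1 and Aimp2 were called in 0 of the 10 comparisons. Their largest log2 fold change between 2 groups was 0.57, for Aimp2 in Pectin vs Control.

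A set of 12 cytosolic and dual members has been reported as ATF4 targets in mammalian cells (Aars, Cars, Eprs, Gars, Iars, Lars, Mars, Nars, Sars, Tars, Wars and Yars). With TMM scaling, in Inulin_PFOS vs Inulin all 12 had a positive log2 fold change (median 0.72) and a p under 0.05 unadjusted. Such a p was found for 2963 of all 15763 genes. Of the 12, 1 was called, where 0.0698% of all genes were called higher. The other 9 cytosolic and dual members had a median of 0.10. In Pectin_PFOS vs PFOS, 10 of the 12 were called higher (median 0.75), and 4 of the other 9 (median 0.32). There 7.7% of all genes were called higher. Of these member calls, only that of Nars held on the TPM scale. In Inulin_PFOS vs PFOS, 6 of the 12 were called higher (median 0.71), and 2 of the other 9 (median 0.21). The share of all genes was 1.84%. In Pectin vs Control, 3 of the 12 were called (median 0.54), and 2 of the other 9 (median 0.20), where 1.03% of all genes were called higher. On the TPM scale the calls of both these comparisons were lost. Rars and Kars, called in 3 of these comparisons, are not in the reported set. With PFOS on cellulose, 0 of the 12 and 0% of all genes were called, and the median of the 12 was 0.04.

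Other genes of the amino acid response were read from a list of 36, of which 35 were tested. Asns had 63.0, 31.2 and 46.8 CPM in Inulin_PFOS, against 10.96, 13.7 and 9.76 CPM in Inulin. It had 38.3, 89.3, 57.5 and 45.4 CPM in Pectin_PFOS, 41.0, 28.1, 34.8 and 37.6 CPM in Pectin, 14.4, 12.7, 11.6 and 12.6 CPM in PFOS, and 10.9, 13.9, 9.54 and 19.1 CPM in Control. Libraries of Pectin_PFOS, Pectin and Inulin_PFOS all lay above the rest. Asns was called higher in Inulin_PFOS vs Inulin (2.03 ± 0.30), Inulin_PFOS vs PFOS (1.88 ± 0.27), Pectin_PFOS vs PFOS (2.17 ± 0.26) and Pectin vs Control (1.41 ± 0.26). Mthfd2 was called higher in those 4 comparisons too, with log2 fold changes of 2.51 ± 0.32, 2.13 ± 0.29, 1.68 ± 0.27 and 1.23 ± 0.27. Atf4 transcripts themselves were called in 0 of the 10 comparisons, with log2 fold changes between −0.27 and 0.65 over the 7 pairs. Over the list, 4 of 35 genes were called higher in Inulin_PFOS vs Inulin (Jdp2, Mthfd2, Asns and Atf5), 7 in Inulin_PFOS vs PFOS, 2 in Pectin vs Control, 9 in Pectin_PFOS vs PFOS beside 1 lower (Vldlr), and 4 in Pectin_PFOS vs Pectin. Those 4 were Slc3a2 and Slc7a5, which together form a transporter of large neutral amino acids, Trib3 and Jdp2. Of all genes, 0.0698% were called higher in Inulin_PFOS vs Inulin, 1.84% in Inulin_PFOS vs PFOS and 1.03% in Pectin vs Control. In Pectin_PFOS vs PFOS 7.7% were called higher and 8.33% lower. In Pectin_PFOS vs Pectin 11.4% were called higher, a share close to that of the list. For PFOS on pectin against PFOS on inulin, 6 of the 35 were called lower (Mthfd2, Jdp2, Nupr1, Asns, Atf5 and Stc2) and 1 higher (Slc3a2). The median of the list was −0.71 there, and 12.3% of all genes were called lower and 13.1% higher. List genes were tested with TMM scaling only.

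Other parts of the translation machinery were counted from lists, again with TMM scaling only. Of all genes, 7.7% were called higher and 8.33% lower in Pectin_PFOS vs PFOS. The shares were 11.4% higher and 9.43% lower in Pectin_PFOS vs Pectin, 1.84% higher in Inulin_PFOS vs PFOS, and 1.03% higher in Pectin vs Control. Of 24 cytosolic translation factors, 6 were called higher in Pectin_PFOS vs PFOS, led by Eif3c (0.83 ± 0.17), and 1 in each of Inulin_PFOS vs PFOS (Eif2s2, 1.83 ± 0.38) and Pectin vs Control (Eif5b, 0.65 ± 0.14). In Pectin_PFOS vs Pectin, Abce1 (−1.01 ± 0.20), Eif2b3 (−0.86 ± 0.27) and Eif2s1 (−0.66 ± 0.21) were called lower and Eif3c (0.51 ± 0.17) higher. For PFOS on pectin against PFOS on inulin 3 were called lower, a share close to the 12.3% of all genes. Of 78 mitochondrial ribosomal proteins tested, 0 were called in Inulin_PFOS vs Inulin and in Inulin_PFOS vs PFOS, but 75 and 73 of them had positive log2 fold changes (medians 0.39 and 0.38), above the medians of the mitochondrial synthetases in those comparisons (0.07 and 0.13). By calls, 2 were higher in Pectin_PFOS vs PFOS and 19 lower in Pectin_PFOS vs Pectin. For PFOS on pectin against PFOS on inulin, 32 of the 78 were called lower, where 12.3% of all genes were. In that comparison 1 of the 78 had a positive log2 fold change (median −0.70). Of 16 mitochondrial translation factors, Tufm, the mitochondrial elongation factor, was called higher in Pectin_PFOS vs PFOS (1.01 ± 0.21), and Slirp and Mtrf1 lower in Pectin_PFOS vs Pectin. Of 12 partners of tRNA charging, Eef1e1, a further component of the multisynthetase complex, was called lower in Pectin_PFOS vs Pectin (−1.39 ± 0.29, adjusted p = 0.00579), and so were Pstk and Dtd1, while Sephs2 and Sepsecs, of selenocysteine synthesis, were called higher. For PFOS on pectin against PFOS on inulin, 3 of these 12 were called lower and 2 higher. Of the 16 mitochondrial translation factors, 3 were called lower and 1 higher there, where 12.3% of all genes were lower and 13.1% higher.

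Markers of cell types, tested with TMM scaling only, moved in the same comparisons, and their part in the results was not tested. In Pectin_PFOS vs PFOS, 5 of 12 epithelial, 4 of 8 goblet cell and 3 of 12 enterocyte markers were called higher. So were 3 of 12 plasma and B cell, 2 of 9 Paneth cell and 1 of 13 T cell markers. Called lower were 8 of 12 fibroblast, 2 of 12 enteric nerve and glia and 1 of 12 macrophage and myeloid markers. Of all genes, 7.7% were called higher and 8.33% lower. T cell markers were positive in 13 of 13 (median 1.12) and smooth muscle markers in 0 of 12 (median −0.74, 0 called). Summed epithelial markers ran from 22966 to 32155 CPM in Pectin_PFOS and from 15433 to 19076 CPM in PFOS, goblet markers from 13826 to 17112 CPM in Pectin_PFOS and from 6359 to 10182 CPM in PFOS, and fibroblast markers from 176 to 384 CPM in Pectin_PFOS and from 570 to 787 CPM in PFOS. Mitochondrially encoded genes took 2.85% to 3.51% of counts in Pectin_PFOS and 4.26% to 9.16% in PFOS. Their share was 3.88% to 7.36% in Pectin, 3.95% to 7.90% in Inulin_PFOS, 5.16% to 12.2% in Inulin and 3.74% to 14.9% in Control. In Inulin_PFOS vs PFOS, 3 of 8 goblet cell markers and 2 of 12 plasma and B cell markers were called higher, where 1.84% of all genes were. The goblet sum was 11199 to 19545 CPM in Inulin_PFOS and 6359 to 10182 CPM in PFOS. Smooth muscle markers were positive in 12 of 12 (median 0.98, 0 called) and macrophage and myeloid markers in 11 of 12 (median 0.87, 0 called). In Pectin vs Control, 3 of 12 plasma and B cell markers were called higher, with sums of 2489 to 5249 CPM in Pectin and 694 to 1282 CPM in Control, but 6 of the 12 had a positive log2 fold change (median 0.19). There 2 of 8 goblet cell, 1 of 13 T cell and 1 of 12 macrophage and myeloid markers were also called higher. Of all genes 1.03% were. Proliferating cell markers were positive in 12 of 12 (median 1.12, 0 called), with sums of 229 to 281 CPM in Pectin and 106 to 153 CPM in Control. The enterocyte sum was 13899 to 62599 CPM in Pectin (median 54509) and 35417 to 61186 CPM in Control (median 51891). Paneth cell markers were positive in 9 of 9 (median 0.99, 0 called) and macrophage and myeloid markers in 11 of 12 (median 0.79). In Inulin_PFOS vs Inulin 0 genes of the 12 marker lists were called, where 0.159% of all genes were. Smooth muscle markers were positive in 12 of 12 (median 1.34), with sums of 4732 to 12765 CPM in Inulin_PFOS and 1721 to 5357 CPM in Inulin, Paneth cell markers in 9 of 9 (median 1.18), macrophage and myeloid markers in 12 of 12 (median 1.17), fibroblast markers in 11 of 12 (median 0.90) and T cell markers in 9 of 13 (median 0.18). The goblet sum was 11199 to 19545 CPM in Inulin_PFOS and 7599 to 9350 CPM in Inulin, the fibroblast sum 495 to 771 CPM in Inulin_PFOS and 301 to 476 CPM in Inulin, and the T cell sum 238 to 321 CPM in Inulin_PFOS and 49.4 to 176 CPM in Inulin. In Pectin_PFOS vs Pectin, 6 of 12 fibroblast and 5 of 9 Paneth cell markers were called lower and 5 of 12 enterocyte markers higher. Also higher were 3 of 12 epithelial and 2 of 8 goblet cell markers. Also lower were 2 of 12 macrophage and myeloid and 1 of 12 proliferating cell markers. Of 12 plasma and B cell markers, 1 was called higher and 1 lower. Of all genes, 11.4% were called higher and 9.43% lower. For PFOS on pectin against PFOS on inulin, 11 of 12 smooth muscle, 9 of 12 macrophage and 8 of 12 fibroblast markers were called lower. So were 7 of 9 Paneth cell, 3 of 8 goblet cell and 3 of 12 plasma and B cell markers. Among enteric nerve and glia markers 2 of 12 were lower. Called higher were 4 of 12 enterocyte, 1 of 12 epithelial and 1 of 12 plasma and B cell markers. Of all genes, 13.1% were called higher and 12.3% lower. Of 11 exocrine pancreas markers, only Cela1 passed the filter, with a mean of 3.37 CPM and 0 libraries at 0. Cpb1 was next with 0.0414 CPM. Amy2b was at 0 in all 22 libraries, and Cpa1, Pnlip and Prss2 averaged at most 0.0182 CPM.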

How the data were processed

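Total RNA from intestinal tissue was sequenced as stranded libraries on a DNBSEQ platform, per the labels' protocols. The authors deposited an expected count and a TPM value per gene and library; how reads were divided between similar genes, or strand used, is not given in the sources used here. HISAT, Bowtie2 and GRCm39 are named, without versions, per the submitters' processing notes, but 38946 of 46091 genes shared with the GENCODE annotation of GRCm38 have identical coordinates, so coordinates here are GRCm38. Promoter sequences come from RefSeq (GRCm38.p6).

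Expected counts were rounded to whole numbers and tested in edgeR 4.0.16 (R 4.3.3) by its robust quasi-likelihood F test, in 1 model of 22 libraries with a mean per group, TMM scaling and the default expression filter, which left 15763 genes. P-values are two-sided, Benjamini-Hochberg adjusted within each of 10 comparisons (7 pairs, 3 differences of PFOS effects), and called under 0.05. The SE was taken from the fold change and F, as |log2 fold change| over √F. CPM uses TMM-scaled totals; log2 CPM uses a prior count of 2. The biological coefficient of variation was 31.9%. In counts simulated from these libraries, 100 of 15763 genes were changed 2-fold and 100 were changed 4-fold. Of those, 15% and 72% were recovered for Inulin_PFOS vs Inulin, and 35% and 78% for Pectin_PFOS vs PFOS. The data had 2526 called genes in Pectin_PFOS vs PFOS, more than were changed in the simulation. Recovery in that comparison need not be the same, because the adjusted threshold depends on how many genes change. Alternatives used DESeq2 1.42.0 and limma 3.58.1 on log2(TPM + 1). Biological replicate numbers of the titles were tested as a block.

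Members, their classes and 17 gene lists (303 of 307 entries found) were chosen with earlier results of these data known. Called members are named with values, and where few were called mostly also the cytosolic and mitochondrial members of smallest p; list genes are named by smallest p. Which members to show per library, and the pairs of enzymes for 1 amino acid, were chosen after values were seen. Aarsd1 shares 81.9% of its 50-base stretches with Gm27029, Aars 22.4% with Exosc6 and Iars 8.61% with Gm4849, so these counts are uncertain, as are members that overlap a neighbour (among them Iars2, Aimp2, Farsb, Fars2, Vars2, Hars, Hars2 and Mars, which shares 68 bases with Ddit3). Not every member is reported here by name. Replicates differed beyond sampling noise in every pair, with a chi-square per degree of freedom of at least 29.5.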

Additional observations from a re-analysis of the deposited data

Results flagged for a closer look

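Single libraries stood apart in 9 of 96 groups of 4 examined (members called in any comparison, and the class scores), where chance alone gives about 1 in 20. In Pectin_PFOS, replicate 2 was highest for Cars (52.5 CPM, the others 29.0 to 31.0), Mars (53.2 CPM, the others 29.4 to 31.4) and Tars (72.8 CPM, the others 48.9 to 52.5). In Pectin, replicate 4 was highest for Iars2 (55.5 CPM) and replicate 3 for Wars (91.2 CPM). In PFOS, replicate 4 was highest for Nars2 (4.89 CPM) and replicate 2 lowest for the mitochondrial class score (−0.344). In Control, replicate 2 was lowest for Farsb (9.83 CPM) and replicate 4 highest for Yars2 (6.37 CPM).

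The PFOS effect differed between pectin and inulin, by the test of the difference itself, for Nars2 (−1.19), Mars (−0.91), Yars (−0.92), Yars2 (−1.42) and Prorsd1 (−0.78), as log2 values of the effect on pectin minus the effect on inulin. These 5 of 42 members called lower are a share near that of all genes, of which 12.3% were called lower. Mars rose by 1.30 ± 0.22 with PFOS on inulin and had 0.39 on pectin, where it was not called.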

How the results depend on the processing

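Over the alternatives other than omissions, values of single members stayed on their side of the threshold in 603 cases, lost it in 154, gained it in 25 and reversed in 6, all 6 on the TPM scale (Hars in PFOS vs Control, 0.00, and Qars in Pectin_PFOS vs PFOS, −0.06). The cause was not tested.

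Calls here count either direction unless one is named. With DESeq2, cytosolic calls numbered 1 in Inulin vs Control, 8 in Inulin_PFOS vs Inulin, 5 in the inulin interaction, 6 in the pectin minus inulin difference, 5 in Pectin vs Control and 4 in Pectin_PFOS vs Pectin, and mitochondrial calls 1 in Inulin_PFOS vs Inulin, 2 in Pectin vs Control and 4 in Pectin_PFOS vs PFOS. Of all 15763 genes, DESeq2 called 192 higher and 591 lower in Inulin vs Control, and 204 and 293 in Inulin_PFOS vs Inulin. It called 335 and 324 in the inulin interaction, and 2489 and 2184 in the pectin minus inulin difference. The counts were 457 and 400 in Pectin vs Control, 2235 and 1826 in Pectin_PFOS vs Pectin, and 1609 and 1656 in Pectin_PFOS vs PFOS. With the dual enzymes counted as cytosolic, Pectin vs Control had 5 cytosolic calls; counted as mitochondrial, they gave 3 mitochondrial calls in Inulin_PFOS vs PFOS, 2 in Pectin vs Control and 4 in Pectin_PFOS vs PFOS. With only the compared groups in the fit, cytosolic calls were 0 in Inulin_PFOS vs Inulin, 5 in the pectin minus inulin difference and 0 in Pectin vs Control. Of all genes, such fits called 0 higher and 0 lower, 1903 and 2007, and 34 and 14 in these comparisons. Without the low count filter, mitochondrial calls were 0 in Inulin_PFOS vs PFOS and 1 in Pectin_PFOS vs PFOS. Of the 25457 genes then tested, 229 were called higher and 80 lower in Inulin_PFOS vs PFOS, and 923 and 958 in Pectin_PFOS vs PFOS.

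With library totals alone, cytosolic calls were 2 in Inulin_PFOS vs PFOS, 5 in the pectin minus inulin difference, 1 in Pectin vs Control and 5 in Pectin_PFOS vs PFOS, and mitochondrial calls 0 in Inulin_PFOS vs PFOS and 1, lower, in Pectin_PFOS vs PFOS, where Iars2 and Fars2 were no longer called. Of all genes, 141 were called higher and 858 lower in Inulin_PFOS vs PFOS, and 987 and 2141 in the pectin minus inulin difference. The counts were 51 and 75 in Pectin vs Control, and 299 and 3530 in Pectin_PFOS vs PFOS. Cytosolic medians were −0.24 in Inulin vs Control, 0.19 in Inulin_PFOS vs PFOS, 0.54 and −0.14 in the inulin and pectin interactions, −0.67 in the pectin minus inulin difference, 0.31 in Pectin_PFOS vs PFOS and −0.14 in Pectin_PFOS vs Pectin. Mitochondrial medians were −0.19 in Inulin_PFOS vs PFOS, −0.36 in the pectin interaction, −0.13 in Pectin_PFOS vs PFOS and −0.29 in Pectin_PFOS vs Pectin.

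With limma on log2(TPM + 1), with or without a filter, cytosolic calls were 0 in Inulin_PFOS vs Inulin, 1 in Inulin_PFOS vs PFOS, 1 in the pectin minus inulin difference, 0 in Pectin vs Control, 3 in Pectin_PFOS vs PFOS and 1 in Pectin_PFOS vs Pectin. Mitochondrial calls, all lower, were 3 in Inulin_PFOS vs PFOS with the filter, 0 in the pectin minus inulin difference, 1 in Pectin_PFOS vs PFOS (neither Iars2 nor Fars2) and 1 in Pectin_PFOS vs Pectin. These counts were the same with a pseudocount of 0.1. With a pseudocount of 1 and the filter, 7 of all genes were called higher and 5 lower in Inulin_PFOS vs Inulin. All genes gave 144 and 2957 in Inulin_PFOS vs PFOS, and 1523 and 654 in the pectin minus inulin difference. They gave 28 and 67 in Pectin vs Control, 237 and 3680 in Pectin_PFOS vs PFOS, and 671 and 664 in Pectin_PFOS vs Pectin. Cytosolic medians, with pseudocounts of 1 and 0.1, were 0.32 and 0.35 in Inulin_PFOS vs Inulin, −0.06 and −0.07 in Inulin_PFOS vs PFOS, 0.21 and 0.23 in the inulin interaction, −0.06 with either in the pectin interaction, −0.16 and −0.17 in the pectin minus inulin difference, 0.18 with either in PFOS vs Control, 0.09 and 0.11 in Pectin vs Control, and 0.12 and 0.13 in Pectin_PFOS vs PFOS. Mitochondrial medians were −0.30 and −0.40 in Inulin_PFOS vs PFOS, −0.24 and −0.44 in the inulin interaction, 0.15 and 0.22 in the pectin minus inulin difference, 0.00 and −0.01 in Pectin vs Control, and −0.15 and −0.17 in Pectin_PFOS vs PFOS. With a pseudocount of 0.1 they were −0.19 in Inulin_PFOS vs Inulin and 0.23 in PFOS vs Control.

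Leaving out each library in turn, cytosolic calls ranged from 0 to 3 in Inulin_PFOS vs Inulin, 2 to 7 in Inulin_PFOS vs PFOS, 0 to 1 in the inulin interaction, 0 to 9 in the pectin minus inulin difference, 1 to 5 in Pectin vs Control, 1 to 5 in Pectin_PFOS vs Pectin and 8 to 12 in Pectin_PFOS vs PFOS. Mitochondrial calls ranged from 0 to 1 in Inulin_PFOS vs PFOS, 0 to 4 in the pectin minus inulin difference, 1 to 3 in Pectin_PFOS vs PFOS and 1 to 3 in Pectin_PFOS vs Pectin. With all 22 libraries, 25.4% of all genes were called in the pectin minus inulin difference, 20.8% in Pectin_PFOS vs Pectin and 16% in Pectin_PFOS vs PFOS. The shares were 2.64% in Inulin_PFOS vs PFOS, 1.99% in Pectin vs Control, 0.159% in Inulin_PFOS vs Inulin and 0% in the inulin interaction. The cytosolic median ranged from 0.50 to 0.80 in Pectin_PFOS vs PFOS, and mitochondrial medians from −0.06 to 0.22 and −0.27 to 0.13 in the inulin and pectin interactions and −0.24 to 0.03 in the pectin minus inulin difference.

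Biological replicate numbers did not pair the samples: at most 2 of 4 pairs in any comparison had a correlation of deviations over 0.1, and 6 of 22 libraries correlated best with their own number. The titles also carry a sample number, which differs from the replicate number in some samples. Pairing by that number was not tested. With the replicate block, cytosolic calls were 12 in Pectin_PFOS vs PFOS, 6 in Inulin_PFOS vs PFOS and 2 in Pectin vs Control, and mitochondrial calls in Pectin_PFOS vs PFOS were 3. Of all genes, the block gave 1311 higher and 1674 lower, 251 and 91, and 151 and 155 in these 3 comparisons. In Pectin vs Control, Mars, Gars and Kars were not called with the block. Groups of 3 or 4 limit what can be detected.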
